A study of Homo sapiens with 2 samples.

Results

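The 48 genes described here act in G2 and mitosis, the part of the cell cycle in which a cell with replicated DNA condenses its chromosomes, builds a spindle, separates the sister chromatids and divides. They were chosen by name and not by their values, and all 48 were measured, among 19775 genes with a probe set on the array. The list was drawn up to leave out the kinesin motors, although 1 of its members, CENPE, is itself a motor of the kinesin family. The cells were HSC-3, an established line from an aggressive human tongue squamous cell carcinoma, which carried a red fluorescent protein from a lentiviral vector with a non-coding control sequence under puromycin selection. For each surface 3 wells were used and 90000 cells were seeded (whether per well is not stated), either on uncoated plastic or on Myogel, a matrix extracted from human uterine leiomyoma tissue, and RNA was collected on the next day. Equal amounts of RNA from the 3 wells of a surface were pooled, and 1 µg of RNA was the template for labelled cRNA. The cRNA of each pool was hybridised to 1 Affymetrix microarray, the Human Genome U133 Plus 2.0. The data are therefore 1 value per surface for each probe set, with no replicate, no test and no p-value, and how precise a difference is cannot be measured from so few arrays. The comparison asks whether the transcripts of cell division differ when the cells grow on Myogel instead of plastic. RNA of a whole culture was measured, in which fewer dividing cells and less RNA per dividing cell cannot be told apart.

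Entry into mitosis is driven by the kinase CDK1 bound to cyclins A and B, which accumulate through G2. At the centromeres, kinetochores catch spindle microtubules, and the spindle assembly checkpoint holds back the ubiquitin ligase APC/C until every chromosome is attached. The APC/C then marks cyclin B and securin for destruction, separase cuts cohesin, and the central spindle directs cleavage of the cell. Most of these genes are transcribed together late in the cell cycle. Their promoters are known for a CHR element, with the core TTTGAA, to which the DREAM and MuvB complexes bind, and for CCAAT boxes, which are bound by NF-Y.

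Both motifs were searched in the RefSeq promoter windows of the assembly GRCh38.p14, on either strand, over 250 bases before and 50 bases after the start of a gene, taking the first listed window of each gene. A window was found for 41 of the 48 genes, the exceptions being TTK, BUB3, RACGAP1, BIRC5, AURKA, TPX2 and UBE2C. TTTGAA was present in 29 of the 41 windows (70.7%), and in 15.4% of the windows of 27305 genes. CCAAT was present in 30 windows (73.2%), against 35.7% of all. Both stood in the same window for 21 members (51.2%), against 6.08% of all genes and 4.82% of those on the array. Neither was found for CDC25B, CDC25C and CENPE. In CDCA8 and MKI67 a TTTGAA shared bases with a CCAAT on the other strand. These are matches of letters in a window and not measured binding sites. To show how the motifs lie, 200 bases before the start are given for the 4 genes with the brightest signals among the 17 that held both motifs before the start, and for CCNB2, which was added after its matches had been seen. The stretches end at the base before the start, written in the direction of transcription, and lie at chr10:60778131-60778330 (plus strand) for CDK1, chr17:40417897-40418096 (minus strand) for TOP2A, chr14:55191586-55191785 (minus strand) for DLGAP5, chr1:43358781-43358980 (plus strand) for CDC20 and chr15:59104946-59105145 (plus strand) for CCNB2. Capitals mark matches to either motif, which on the other strand read TTCAAA for the first motif and ATTGG for the second.
CDK1: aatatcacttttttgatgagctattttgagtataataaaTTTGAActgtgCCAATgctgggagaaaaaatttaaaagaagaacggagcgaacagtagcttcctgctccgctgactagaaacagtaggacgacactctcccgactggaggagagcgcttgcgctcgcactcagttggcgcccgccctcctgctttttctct
TOP2A: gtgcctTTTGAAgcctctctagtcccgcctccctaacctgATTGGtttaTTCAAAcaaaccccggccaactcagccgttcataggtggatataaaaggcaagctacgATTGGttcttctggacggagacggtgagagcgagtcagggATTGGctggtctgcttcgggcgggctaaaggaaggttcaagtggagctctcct
DLGAP5: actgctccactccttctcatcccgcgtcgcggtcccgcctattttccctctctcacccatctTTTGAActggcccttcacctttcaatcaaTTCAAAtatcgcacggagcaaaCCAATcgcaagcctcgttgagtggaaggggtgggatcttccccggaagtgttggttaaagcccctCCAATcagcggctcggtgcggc
CDC20: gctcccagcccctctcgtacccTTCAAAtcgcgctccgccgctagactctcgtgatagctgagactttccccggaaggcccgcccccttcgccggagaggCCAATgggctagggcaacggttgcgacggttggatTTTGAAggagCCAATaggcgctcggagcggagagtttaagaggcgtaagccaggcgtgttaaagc
CCNB2: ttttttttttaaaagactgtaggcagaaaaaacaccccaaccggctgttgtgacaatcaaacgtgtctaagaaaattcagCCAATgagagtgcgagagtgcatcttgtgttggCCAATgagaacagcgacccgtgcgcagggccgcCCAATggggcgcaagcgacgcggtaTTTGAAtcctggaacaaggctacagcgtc
In the stretch of CCNB2, which encodes cyclin B2, CCAAT began at positions -120, -87 and -54 from the start, 33 bases apart, and TTTGAA followed at -29. In CDC20, the nearest TTTGAA began at -65 and the nearest CCAAT at -55. Of the 38 TTTGAA matches in members, 20 began within the 60 bases before the start. Positions were not counted in the windows of other genes, so this count has no background beside it.

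The G2 and mitosis genes had nearly the same signals on the 2 surfaces. None of the 48 differed by a fold change (FC, Myogel over plastic) of 1.5 or more in either direction, a threshold that the methods of the study name and that was applied here with no filter on signal. Among all genes, 9.71% were higher and 17.5% were lower on Myogel by this threshold, 27.3% in all. Bright genes pass the threshold less often, and 41 of the 48 members lay in the 2 highest deciles of signal, where 0.278% of 3955 genes were higher and 0.354% were lower, 0.632% in all. When a difference of 100 linear units was required as well, the shares of all genes were 0.445% higher and 0.627% lower. With this stricter rule the members could only give 0 and 0 again. A count of 0 among 48 mostly bright genes is therefore near the background and is not a result particular to these genes. At FC 1.2, 3 members were higher and 4 lower, together 14.6%. By that lower threshold 18.1% of all genes were higher and 30.8% lower (49% in all), and in the 2 highest deciles 5.16% were higher and 6.73% lower (11.9% in all). The other 41 members lay within FC 1.2, and 35 within FC 1.1.

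The median log2 FC of the members was -0.01, where all genes had -0.07, genes at or above the median signal -0.03 and genes in the 2 highest deciles -0.03. The quartiles of the members were -0.10 and 0.05. Values as deposited were higher on Myogel for 20 members and lower for 28 (58.3%), a split near the 57.4% of genes in the 2 highest deciles that were lower. The majority turned with the scaling. After quantile normalization 28 members were higher and 19 lower, and after loess centring 28 and 20. With the median log2 ratio set to 0, 36 were higher and 12 lower. The SD of the log2 FC as deposited was 0.17 over the members and 0.17 over the genes of the 2 highest deciles. Summed over the members, the signals came to 171476 on plastic and 170535 on Myogel, a ratio of 0.995.

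**Figure D1:**
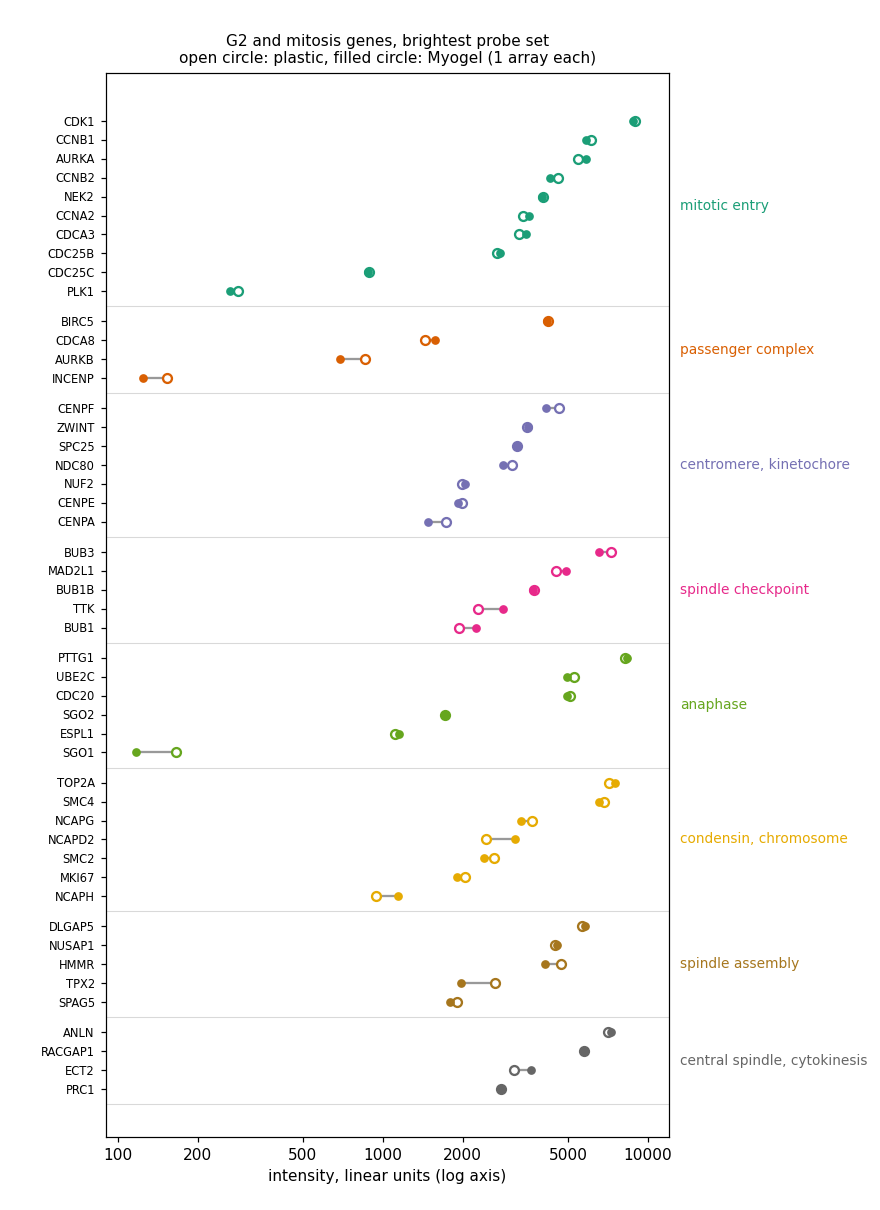
Intensity of the brightest probe set of each of the 48 genes in linear units (x axis, log scale) on plastic (open circles) and on Myogel (filled circles), 1 array each, with genes grouped and coloured by role. The circles of most genes touch or overlap, and the widest gaps are those of SGO1, TPX2 and NCAPD2.

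The signals were high for most members. Both arrays gave values above 1000 for 42 of them, with medians of 3232 on plastic and 3402 on Myogel, where the median over all genes was 150 and 139. The dimmest were INCENP and SGO1, just under the median gene signal of 142.4, and no member lay at the floor of 1. Probe sets bind their targets with unequal strength, so signals of different genes are not ranked as amounts of transcript.

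Among the genes of mitotic entry, the 10 members all lay within FC 1.2. CDK1, the kinase that drives mitosis, had the highest signal of the 48, with 8961 on plastic and 8822 on Myogel. Its partner cyclin B1, CCNB1, had 6131 on plastic and 5836 on Myogel, and CCNB2 had 4594 and 4290. CCNA2, the cyclin of S phase and G2, had 3382 on plastic and 3559 on Myogel. Its other probe set went the other way, with 2940 on plastic and 2390 on Myogel (log2 FC -0.30). In the brightest probe sets the log2 FCs of the cyclins ran from -0.10 to 0.07. Those of CCNB1 and CCNB2 turned positive when the median log2 ratio was set to 0. The phosphatases CDC25B (2693 and 2777) and CDC25C (887 and 883), which activate CDK1, differed by log2 FCs of 0.04 and -0.01. AURKA, a kinase of centrosomes and spindle poles, had the highest log2 FC of the group, 0.10, with 5466 on plastic and 5856 on Myogel. PLK1, which acts from mitotic entry to cytokinesis, had the lowest, -0.11, with 285 on plastic and 264 on Myogel. The centrosomal kinase NEK2 (4035 and 3998) and CDCA3, which promotes mitotic entry (3261 and 3477), had log2 FCs of -0.01 and 0.09. The median of the group was -0.01.

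The chromosomal passenger complex corrects faulty attachments at centromeres. Its kinase AURKB had 855 on plastic and 692 on Myogel, a log2 FC of -0.30. INCENP, the scaffold that binds and activates AURKB, had 154 on plastic and 125 on Myogel, likewise -0.30. Both were lower on Myogel by more than FC 1.2 and lay inside the range that held 95% of the genes in their signal deciles, -0.43 to 0.41 for AURKB and -1.02 to 0.92 for the dim INCENP. The other subunits did not share this difference in size. BIRC5, or survivin, had 4184 on plastic and 4168 on Myogel, and CDCA8, or borealin, had 1449 and 1573, log2 FCs of -0.01 and 0.12. With 4 genes the median was -0.15.

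At the centromere and kinetochore, all 7 members lay within FC 1.2. CENPA, the histone H3 variant that marks centromeres, had the lowest log2 FC, -0.23, with 1735 on plastic and 1480 on Myogel. A brighter probe set that matches both CENPA and SLC35F6 was left out by the rule on names. CENPF, a large protein of the outer kinetochore, had the highest signal of the group, 4617 on plastic and 4128 on Myogel (log2 FC -0.16). Of the NDC80 complex, which binds microtubule ends, NDC80 had 3080 on plastic and 2843 on Myogel, NUF2 had 1991 and 2043, and SPC25 had 3203 and 3212. These subunits had log2 FCs of -0.12, 0.04 and 0.00. ZWINT, a kinetochore scaffold, had 3509 and 3540, and the kinetochore motor CENPE had 1997 and 1924.

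The spindle assembly checkpoint had the highest group median, 0.12, over 5 genes, which was the value of MAD2L1. With the probe sets of each gene averaged, the group median was -0.02. TTK, the kinase MPS1 at the top of the checkpoint, was measured by 1 probe set. It had 2278 on plastic and 2833 on Myogel, a value 1.24-fold higher on the matrix. Its log2 FC of 0.31 lay outside the range of -0.30 to 0.28 that held 95% of the genes in its decile. BUB1, a checkpoint kinase at kinetochores, had 1939 on plastic and 2242 on Myogel (log2 FC 0.21), and MAD2L1, which inhibits CDC20, had 4514 and 4902 (0.12). The direction of MAD2L1 rests on its brightest probe set, since its other probe sets had 2658 on plastic and 1542 on Myogel (-0.79) and 927 on plastic and 734 on Myogel (-0.34). BUB1B, known as BUBR1, had 3728 on plastic and 3674 on Myogel, and BUB3 had 7261 and 6532 (log2 FC -0.15). Both were lower on Myogel as deposited, although the sign of BUB1B depended on the scaling. The 6 probe sets of BUB3 had log2 FCs of -0.15, 0.03, 0.02, -0.24, 0.07 and -1.18 from the brightest to the dimmest, and do not share a direction. With the second brightest probe set, which 3 of the 5 genes had, the group median was -0.50. This was the value of a dim probe set of BUB1, with 126 on plastic and 89.1 on Myogel.

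**Figure D2:**
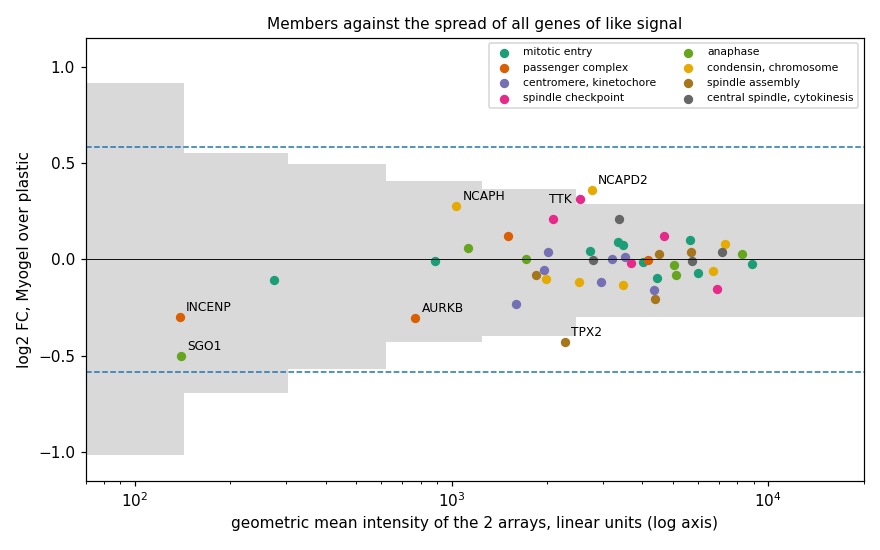
Log2 FC (y axis, Myogel relative to plastic) against the geometric mean intensity of the 2 arrays (x axis, log scale) for the 48 genes, coloured by role. Grey shading shows the range that held 95% of all genes in each signal decile. Dashed lines mark FC 1.5, and the 7 genes beyond FC 1.2 are named. No gene lies beyond the dashed lines, and 3 of the 48, NCAPD2, TTK and TPX2, lie outside the shading. The shading leaves out a share of all genes by construction, and 3 of 48 is near that share.

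Genes of the step into anaphase differed little apart from 1. CDC20, the activator of the APC/C, had 5078 on plastic and 4975 on Myogel, and UBE2C, the enzyme that starts ubiquitin chains for it, had 5258 and 4961. Securin, PTTG1, had 8187 on plastic and 8351 on Myogel, from a probe set of the _x_at type, which may detect related sequences. Separase, ESPL1, which securin holds inactive, had 1108 and 1153. The log2 FCs of these 4 genes lay between -0.08 and 0.06. Shugoshins protect cohesin at centromeres, and SGO2 had 1717 on plastic and 1716 on Myogel. SGO1 had 166 on plastic and 117 on Myogel, 1.42-fold lower on the matrix and the lowest log2 FC of all members, -0.50. At its signal, 95% of genes lay between -1.02 and 0.92, and its other probe set, dimmer still, had 40.3 on plastic and 44.5 on Myogel.

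Condensin shapes mitotic chromosomes, and its subunits differed in both directions. NCAPD2, a HEAT-repeat subunit of condensin I, had 2449 on plastic and 3146 on Myogel, the highest log2 FC of all members, 0.36 or 1.28-fold, and outside the range of its decile (-0.30 to 0.28). NCAPH, the kleisin of the same complex, had 941 on plastic and 1138 on Myogel, a log2 FC of 0.27, inside the range of its decile. Their partner NCAPG had 3644 on plastic and 3327 on Myogel (log2 FC -0.13). The ATPase subunits, which condensin I shares with condensin II, were also slightly lower on Myogel, with 2622 and 2419 for SMC2 and 6846 and 6555 for SMC4, whose sign turned when the median log2 ratio was set to 0. The subunits of the complex did not share a direction in these signals. TOP2A, the topoisomerase that untangles sister chromatids, had 7117 on plastic and 7513 on Myogel. MKI67, which encodes the proliferation marker Ki-67, had 2051 on plastic and 1914 on Myogel. Its 4 probe sets had log2 FCs of -0.10, 0.27, 0.07 and -0.35 from the brightest to the dimmest, and do not share a direction.

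Among factors of spindle assembly, TPX2 had the largest difference. TPX2, which activates AURKA on spindle microtubules and was measured by 1 probe set, had 2657 on plastic and 1971 on Myogel, a signal 1.35-fold lower on the matrix. Its log2 FC of -0.43 lay outside the range of its decile (-0.40 to 0.36). AURKA itself was 1.07-fold higher on Myogel. HMMR, which binds TPX2 at spindle poles, had 4713 on plastic and 4089 on Myogel (log2 FC -0.21), and its other probe set gave 2412 and 2042 (-0.24). DLGAP5, or HURP, which stabilises fibres at kinetochores, had 5622 on plastic and 5776 on Myogel. NUSAP1, which bundles microtubules near chromosomes, had 4470 and 4552, and its other probe set gave 1907 and 2462 (log2 FC 0.37). SPAG5, or astrin, had 1904 and 1798.

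For the central spindle and cytokinesis, signals were again alike on the 2 surfaces. PRC1, which bundles antiparallel microtubules, had 2796 on plastic and 2793 on Myogel. RACGAP1, a subunit of centralspindlin, had 5757 and 5727. ECT2, the exchange factor that activates RHOA at the cleavage furrow, had the highest log2 FC of these genes, 0.21, with 3131 on plastic and 3622 on Myogel. Its second probe set went the other way, with 617 on plastic and 555 on Myogel (-0.15). ANLN, or anillin, which links RHOA, actin and myosin in the furrow, had 7050 and 7250.

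The members beyond FC 1.2 came from 5 of the 8 role groups. TTK, NCAPD2 and NCAPH were higher, and AURKB, INCENP, SGO1 and TPX2 were lower on Myogel. TTK, NCAPD2, NCAPH, INCENP and TPX2 were measured by 1 probe set each. The second probe sets of AURKB and SGO1, both dim, had log2 FCs of -1.52 and 0.14. Each of the 7 genes kept its direction after quantile normalization, after loess centring and after the median log2 ratio had been set to 0. The scalings shifted each by less than its log2 FC as deposited, so this does not test the differences. Of all members, 20 were higher and 12 were lower under every one of these scalings and as deposited, and for 16 the direction depended on the scaling. Setting the median log2 ratio of all probe sets to 0 adds 0.11 to each log2 FC.

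Genes measured by several probe sets show how far signals of the same gene differ on the same arrays, which is not a replicate error. The 48 genes had 95 probe sets in all, with 26 genes having 2 or more. Of the 47 probe sets that were not the brightest of their gene, 4 were higher and 7 were lower by FC 1.5 (13.8% and 24.2% among all probe sets). Of these 11, 8 lay below the median gene signal, among 14 such dim probe sets, and the most extreme was a probe set of CCNB2 with 49.0 on plastic and 2.27 on Myogel. The brightest probe set of CCNB2 had a log2 FC of -0.10.

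Another 3 of these 11 probe sets were above the median gene signal, and all were lower on Myogel. A probe set of MAD2L1 had 2658 on plastic and 1542 on Myogel, a log2 FC of -0.79, where the brightest gave 0.12. A probe set of NEK2 had 660 on plastic and 407 on Myogel (-0.70), where the brightest gave -0.01. A probe set of CDC25C had 223 on plastic and 132 on Myogel (-0.76), where the brightest gave -0.01. The second probe sets of these 3 genes were thus 1.62-fold to 1.72-fold lower, while the brightest lay within FC 1.1. For ANLN the second probe set had 2965 on plastic and 2127 on Myogel (-0.48), against 0.04 for the brightest. That of NUSAP1 differed upwards, with 1907 on plastic and 2462 on Myogel (0.37), against 0.03 for the brightest.

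Over all 26 genes the second brightest probe set was lower by FC 1.5 for 4 and higher for 0, where 22.6% and 12.4% of all genes with a second probe set were lower and higher. Of 22 members whose second brightest probe set was at or above the median gene signal, 3 were lower by FC 1.5 in it (13.6%) and 0 were higher. Among 4238 genes with such a probe set, 4.79% were lower and 2.64% were higher. A value below 0 was found for 17 of the 22 (77.3%), against 57.8% of the 4238, and the medians were -0.10 and -0.05. The 2 brightest probe sets of a member differed by a median of 0.15 on the log2 scale, against 0.20 over these genes, and they had the same sign for 12 of the 22. This disagreement is as large as most of the differences between the surfaces given above. The 3′ and 5′ control probe sets also differed between the arrays. The control probe sets for beta-actin gave a ratio of the 3′ to the 5′ end of 3.19 on plastic and 6.10 on Myogel, and those for GAPDH 1.10 and 1.22. Where the probe sets of the members lie along their transcripts was not analysed here, and whether these ratios play a part in the results was not tested.

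**Figure D3:**
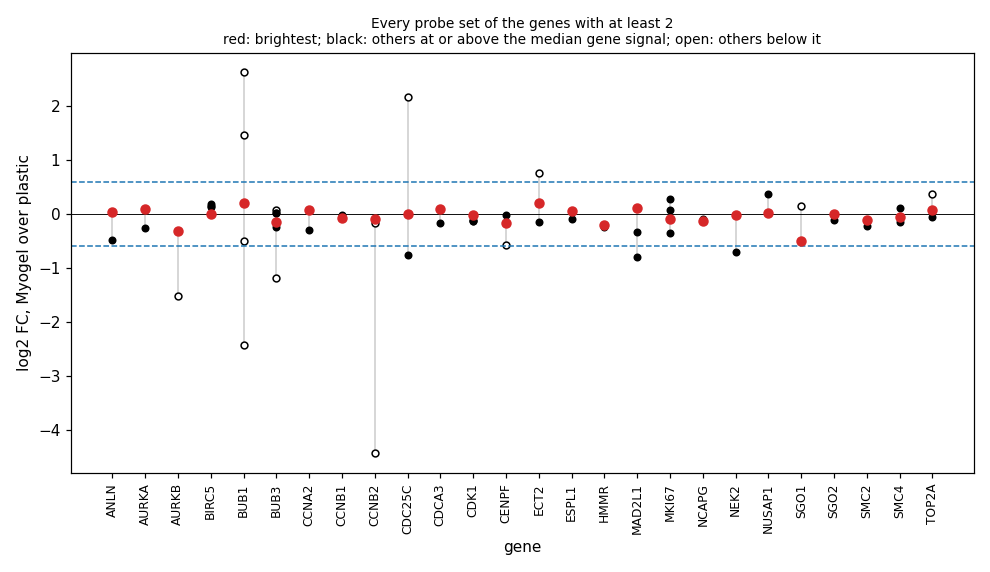
Log2 FC (y axis, Myogel relative to plastic) of every probe set of the 26 genes that had at least 2 (x axis). Red points are the brightest probe set of a gene, black points other probe sets at or above the median gene signal and open points those below it, and dashed lines mark FC 1.5; all red points lie between the dashed lines, while open points reach from -4.43 to 2.63.

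Members with both promoter motifs did not stand apart from the others in these signals. The 21 genes with TTTGAA and CCAAT had a median log2 FC of 0.00 and an SD of 0.15, and the 20 with a window that lacked 1 or both had a median of -0.02 and an SD of 0.16. The genes whose promoters are printed above had log2 FCs of -0.02 for CDK1, 0.08 for TOP2A, 0.04 for DLGAP5, -0.03 for CDC20 and -0.10 for CCNB2.

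Other genes of the pathway were taken from 5 lists, of which 101 genes were measured. Their median log2 FC was 0.01. FC 1.5 was reached by 3 of them, 2 upwards and 1 downwards, and FC 1.2 by 12 upwards and 10 downwards. All but 2 of them had signals not below the median gene signal, and of all such genes 0.93% were higher and 1.66% lower at FC 1.5, and 8.93% and 13.5% at FC 1.2, so that these counts are near that background. Among 16 subunits and partners of the APC/C, CDC27, a scaffold subunit, had 2265 on plastic and 3574 on Myogel, 1.58-fold higher. Its other 3 probe sets differed, the brightest of them having 3034 on plastic and 2468 on Myogel. Among 11 cohesin genes, ESCO2, which acetylates cohesin in S phase, had 246 on plastic and 525 on Myogel, 2.14-fold higher, and 284 and 339 in its second probe set. Of 31 other kinetochore and condensin genes, CENPI of the inner kinetochore was 1.58-fold lower (594 on plastic, 375 on Myogel), where its second probe set had 408 and 391. In the list of 32 regulators of G2 and mitosis none passed FC 1.5, the largest difference being that of the minus-end motor KIFC1, 590 on plastic and 804 on Myogel. None of 11 mitotic kinesins passed either, and KIF20B, with 1465 and 1845, differed most. The medians of these 5 lists, in this order, were 0.02, 0.06, 0.01, -0.01 and -0.06.

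**Figure D4:**
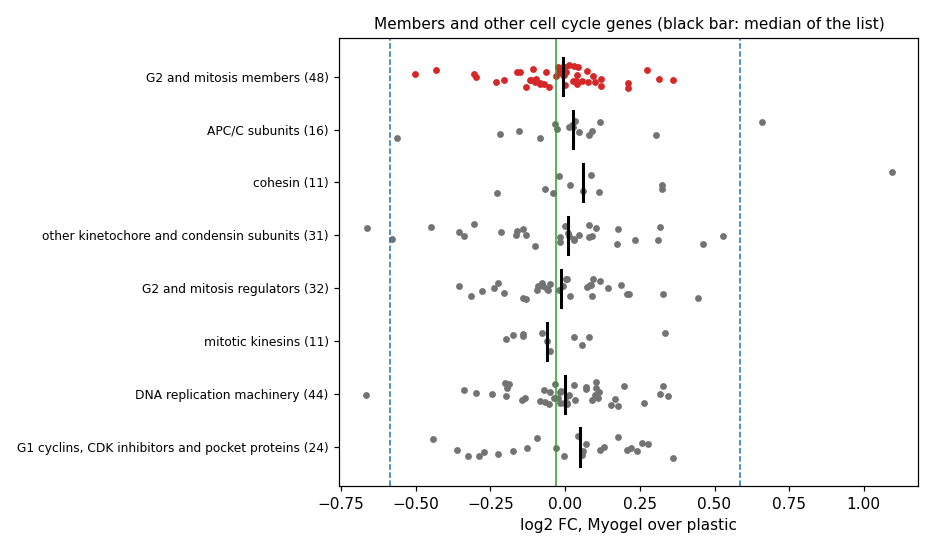
Log2 FC of Myogel over plastic (x axis) of the 48 members (red) and of 7 lists of other cell cycle genes (grey), 1 point per gene with its brightest probe set and the number of measured genes in parentheses. Black bars are list medians, the green line is the median of genes at or above the median signal (-0.03) and dashed lines mark FC 1.5; the medians lie between -0.06 and 0.06.

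Genes of the phases before G2 gave a similar picture. In the list of DNA replication, 44 genes were measured with a median log2 FC of 0.00, and FC 1.5 was passed by ORC3 alone, a subunit of the origin recognition complex with 1 probe set (2735 on plastic, 1722 on Myogel). In the list of G1 cyclins, CDK inhibitors and pocket proteins, 24 genes were measured with a median of 0.05, and none passed FC 1.5. The kinase CDK4 of G1 (2393 and 1861) had the largest difference at or above the median signal, together with the transcription factor E2F4 (511 and 658), log2 FCs of -0.36 and 0.36.

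The label of the cells was checked against markers. Of 8 genes of stratified squamous epithelium 5 had a probe set here, KRT5, KRT14, CDH1, SFN and DSP, with signals from 3993 to 18856. Markers of other cells, which leiomyoma tissue holds, had signals of at most 454. Their sums were 648 on plastic and 630 on Myogel for 6 smooth muscle genes, 676 on both for 6 fibroblast genes, 404 and 306 for 4 endothelial genes and 605 and 599 for 4 genes of blood. Of the 6 smooth muscle genes, 3 were higher and 3 were lower on Myogel. CNN1, among the lower, had 17.6 on plastic and the floor of 1 on Myogel. All 24 probe sets of the spike-in controls added before labelling were lower on Myogel, with log2 FCs from -2.75 to -0.98, and 17 of 18 for the hybridisation controls were lower (-0.51 to 0.09). The part of these controls in the values above was not tested.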

How the data were processed

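HSC-3 cells on plastic and on Myogel were measured with 1 array each, and the samples were assigned by their titles. The treatment label names uncoated plates for both, which the title of the Myogel sample contradicts. The intensity values were made by the authors with the dChip software, of which the version, model and array scaling are unstated in the sources used here. They are linear with a floor of 1, held by 4.42% of 54613 probe sets on plastic and 4.73% on Myogel (medians 59.7 and 52.5). Depth here means signal above background, for which detection calls were not used. Differences are log2 ratios of the deposited values, without further scaling. Of the probe sets, 41091 had 1 gene symbol in the platform annotation, updated through RefSeq (GRCh38.p14), 1801 had several and 11721 are unnamed here. A gene was represented by its brightest probe set, ranked by the mean of both log2 values.

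The members were given by name, and role groups, lists and the rule for named genes were chosen with earlier results of these data known. Any member could be named, and of other lists those genes not below the median signal that passed FC 1.5, or else the one that differed most. No test was possible with 1 array per surface, and shares over all genes stand beside the counts. Alternatives were quantile normalization, loess centring (span 0.3), a median log2 ratio of 0, offsets of 16 and 50, a filter on low signal, other probe sets per gene and other thresholds. The promoter windows were checked for orientation, and 2770 of 2770 overlapping windows on opposite strands were reverse complements. The scripts were tested on simulated data and run in Python 3.11.15 with pandas 2.3.3 and numpy 2.4.6, with loess from statsmodels 0.14.6 and figures from matplotlib 3.10.9.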

Additional observations from a re-analysis of the deposited data

How the results depend on the processing

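The counts of 0 members higher and 0 lower with FC 1.5 or more were the same after quantile normalization, loess centring and setting the median log2 ratio to 0. Offsets of 16 or 50, a threshold of FC 2 and a required difference of 100 linear units could only give 0 again. An offset shrinks every ratio, and the other settings are stricter. The filter on low signal removed no member, so it could not change the counts either. The counts depended on the probe set chosen. When _x_at, _s_at and _a_at probe sets were dropped, 36 members were left and 2 were higher, CDC25C and ECT2, both through dim probe sets (log2 FCs of 2.17 and 0.77), where 11.2% of all genes were higher and 20.7% lower. When the probe sets of a gene were averaged 2 were lower, CCNB2 and AURKB (-1.57 and -0.91), into which dim probe sets enter, where 21.4% of all genes were lower and 11.6% higher. With the second brightest probe set 4 of 26 were lower, CDC25C, NEK2, AURKB and MAD2L1, and 0 were higher (22.6% and 12.4% of all genes with a second probe set). At FC 1.2, 3 were higher and 4 were lower. The median of the members ranged from -0.13 (second brightest probe set) to 0.10 (median log2 ratio set to 0). Over all genes measured in these settings the medians were -0.12 and 0.04. The moves of the members were smaller than their SD of 0.17. That SD is a spread between genes and not the precision of a median.

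Medians of role groups that moved by more than the SD within the group were, with the median log2 ratio set to 0, 0.10 for mitotic entry, 0.0526 for the kinetochore and 0.13 for cytokinesis. With the second brightest probe set they were -0.17 for mitotic entry, -0.68 for the passenger complex, -0.50 for the checkpoint and -0.32 for cytokinesis. That of the passenger complex rested on 2 genes, BIRC5 (0.15) and AURKB (-1.52), the latter with a dim probe set (85.8 on plastic, 29.9 on Myogel). That of the checkpoint, over 3 genes, was the value of a dim probe set of BUB1 (126 on plastic, 89.1 on Myogel). That of cytokinesis rested on 2 genes. When _x_at, _s_at and _a_at probe sets were dropped the median for cytokinesis rested on ECT2 alone, at 0.77. Setting the median log2 ratio to 0 adds the same amount to every log2 FC, and so to every group median. The groups named for that setting are those with the smallest SDs, 0.08 for mitotic entry, 0.10 for the kinetochore and 0.10 for cytokinesis. The cause of the moves with other probe sets was not tested. No paired analysis was possible because each surface has 1 array. The signal limits the dim members INCENP, SGO1 and PLK1 most.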
